A study of Mus musculus with 2 samples.

Results

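The genes described here are 52 genes of the cell division cycle: cyclins and cyclin-dependent kinases (CDKs) of the passage from G1 into S phase, the pocket proteins and E2F factors they control, CDK inhibitors, G cyclins, and genes of DNA replication and of mitosis. They were chosen by name for their roles, with earlier results of these data known. All probe sets annotated with 1 of these symbols were taken, which gave 118 probe sets for 51 of the genes, among 18193 named genes on the array. Primary mouse calvarial cells, from the skull roof of newborn mice and depleted of cells carrying the myeloid surface protein CD11b, were differentiated into osteoblasts with ascorbic acid and β-glycerophosphate for 12 days or for 5 days. No other treatment was given, and the labels name neither the strain nor the number of cultures or mice behind an array. There was 1 Affymetrix array at day 12 and 1 at day 5, so no value below has a replicate error or a p-value, and every difference is between these 2 arrays.

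A cell enters division when D cyclins with Cdk4 and Cdk6, and then E cyclins with Cdk2, phosphorylate the retinoblastoma protein and its relatives, which frees E2F factors to switch on the genes of DNA synthesis. Genes of G2 and mitosis are switched on later, through the CHR element (cell cycle genes homology region) and CCAAT boxes of their promoters, and CDK inhibitors of the Cip/Kip and INK4 families hold the kinases back. Calvarial cells in culture are known to divide first and then to slow down while they lay down and mineralise matrix.

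Promoter sequences are shown for 7 genes because the replication and mitosis genes are known by different promoter elements, and Cdkn2a because it was the one CDK inhibitor at least 2-fold higher at day 12. RefSeq windows (GRCm38.p6) from 250 bases before to 50 bases after a gene's start were matched by symbol for 44 of the 52 genes. They were searched on both strands for 3 kinds of motif: an E2F site spelled TTTCCCGC, TTTGGCGC, TTTCGCGC or TTTGCCGC, the CHR element TTTGAA, and the CCAAT box CCAAT. Each sequence below is the 160 bases before a start, 5′ to 3′ on the gene's strand, and capitals mark the motifs. The replication genes shown are Mcm5 (chr8:75109349-75109508, plus strand), Mcm6 (chr1:128359706-128359865, minus strand) and Cdc6 (chr11:98907991-98908150, plus strand).
Mcm5: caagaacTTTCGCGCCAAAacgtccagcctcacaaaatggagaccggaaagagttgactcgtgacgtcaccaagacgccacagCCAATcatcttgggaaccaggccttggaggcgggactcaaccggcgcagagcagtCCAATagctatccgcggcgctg
Mcm6: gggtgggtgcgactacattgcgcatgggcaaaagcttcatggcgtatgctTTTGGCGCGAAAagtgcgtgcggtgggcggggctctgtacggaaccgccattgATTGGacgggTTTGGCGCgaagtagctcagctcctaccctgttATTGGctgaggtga
Cdc6: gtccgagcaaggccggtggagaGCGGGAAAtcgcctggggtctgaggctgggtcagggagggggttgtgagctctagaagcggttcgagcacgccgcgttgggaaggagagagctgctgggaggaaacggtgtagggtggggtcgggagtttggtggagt
The first 2 hold E2F sites on both strands that run into each other, and CCAAT boxes nearer the start. The mitosis genes shown are Cdc20 (chr4:118437344-118437503, minus strand), Cdk1 (chr10:69352913-69353072, minus strand) and Mki67 (chr7:135716380-135716539, minus strand).
Cdc20: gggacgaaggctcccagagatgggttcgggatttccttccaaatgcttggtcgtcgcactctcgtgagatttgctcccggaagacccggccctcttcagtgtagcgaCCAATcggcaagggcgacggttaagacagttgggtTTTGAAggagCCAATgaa
Cdk1: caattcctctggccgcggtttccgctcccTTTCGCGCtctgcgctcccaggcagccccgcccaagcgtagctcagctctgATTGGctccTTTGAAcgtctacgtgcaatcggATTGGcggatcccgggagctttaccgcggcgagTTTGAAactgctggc
Mki67: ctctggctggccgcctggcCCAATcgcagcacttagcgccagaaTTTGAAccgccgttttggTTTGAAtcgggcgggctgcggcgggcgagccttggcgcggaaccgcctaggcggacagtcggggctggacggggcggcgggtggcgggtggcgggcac
All 3 hold a CHR element and a CCAAT box, and Cdk1 also holds an E2F site. Cdkn2a has 2 starts, the upstream one (chr4:89294620-89294779, minus strand) for its Arf transcript and the downstream one (chr4:89282193-89282352, minus strand) for its Ink4a transcript.
Cdkn2a Arf: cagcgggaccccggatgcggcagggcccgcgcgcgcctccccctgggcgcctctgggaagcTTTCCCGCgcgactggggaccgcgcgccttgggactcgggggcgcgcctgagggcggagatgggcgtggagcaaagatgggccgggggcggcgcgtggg
Cdkn2a Ink4a: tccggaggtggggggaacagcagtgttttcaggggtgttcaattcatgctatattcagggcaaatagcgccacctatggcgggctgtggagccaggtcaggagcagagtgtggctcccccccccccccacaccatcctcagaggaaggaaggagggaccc
The window before the Arf start holds an E2F site and the other holds none of these letters in the stretch shown.

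Over all matched genes, E2F sites and CHR elements differed in share between the replication and the mitosis genes. An E2F site was present in 6 of 11 replication genes (54.5%), which were Cdc6, Cdt1, Mcm3, Mcm5, Mcm6 and Mcm7, and in 1 of 14 mitosis genes (7.14%), Cdk1. Of 17492 protein-coding genes with a window, 3.29% had one. The CHR element was present in 10 of 14 mitosis genes (71.4%) and in 1 of 11 replication genes (9.09%), Mcm2, against 18.5% of protein-coding genes. A CCAAT box was present in 13 of 14 mitosis genes (92.9%) and 8 of 11 replication genes (72.7%), against 42.3% of protein-coding genes, and all 10 mitosis genes with a CHR element had one as well. Of the G1/S cyclins and CDKs, 5 had a window, with an E2F site in 1 (Cdk2) and a CHR element in none. The pocket proteins and E2F factors held both motifs. An E2F site was in 3 of 6 (Rbl1, E2f3 and E2f7) and a CHR element in 3 of 6 (Rbl2, E2f3 and E2f8). Of 6 CDK inhibitors, 1 had an E2F site (Cdkn2a) and 1 a CHR element (Cdkn2b). Over all 32851 windows, alternative starts included, the shares were 2.26% for the E2F site, 17.9% for the CHR element and 37.4% for the CCAAT box. These are matches of letters, not shown binding sites, and base composition was not matched between the groups. Among the 44 genes, matches of different motifs overlapped only in Mcm7. By motif, the median log2 ratio of day 12 over day 5 was -0.24 in the 12 measured genes with an E2F site and -0.14 in the 30 without, and -0.15 in the 15 with a CHR element and -0.23 in the 27 without. The order for the E2F site was the other way round within the replication genes, with -0.22 in the 6 with a site and -0.35 in the 4 without. Over all measured genes with a window the medians were -0.06 with an E2F site and -0.05 without. Of the 15 genes with a CHR element, 10 were mitosis genes. Within the mitosis genes the medians were -0.12 in those 10 and -0.23 in the 3 without. Over all measured genes with a window they were -0.06 with a CHR element and -0.05 without.

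**Figure D1:**
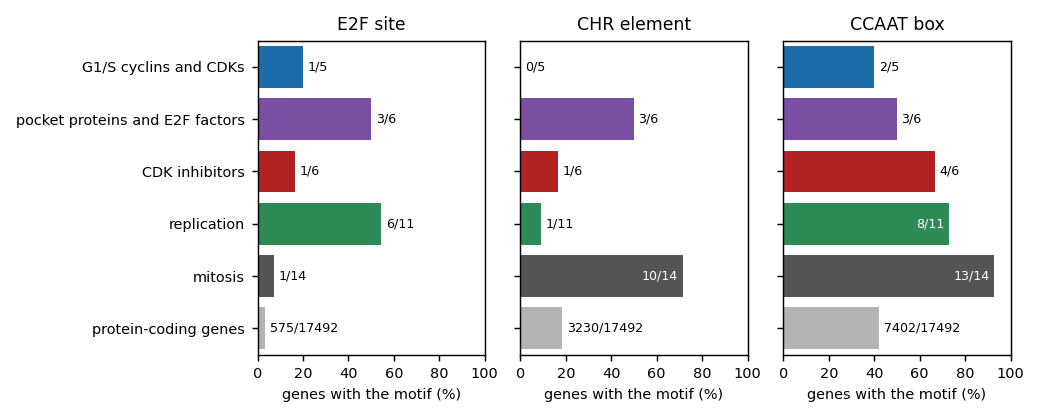
Share of genes (%, x axis) whose 300-base promoter window holds an E2F site, a CHR element or a CCAAT box, by role (y axis), with the count over the genes matched printed on each bar and all protein-coding genes in grey; the 2 G cyclins are not drawn. E2F sites were found in 6 of 11 replication genes and CHR elements in 10 of 14 mitosis genes.

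The array signals carried the cell cycle at both times, and little of it differed much between them. A gene was counted as measured when its brightest probe set reached the 60th percentile of all probe sets on at least 1 array (44.8 at day 12, 46.6 at day 5), and 50 of the 52 genes were, all above that floor on both arrays. Of these 50, 2 were at least 2-fold higher at day 12 (Cdkn2a and Ccng2), 1 was at least 2-fold lower (Ccne1) and 47 lay between. Of all 10479 measured genes, 3.56% were higher at day 12 by at least 2-fold and 1.73% were lower by as much. At 1.5-fold, 4 of the 50 were higher, with Rb1 and Cdkn1a added, and 2 were lower, with Mcm2 added, where 7.25% and 7.7% of all measured genes passed. The median log2 ratio of the 50 genes was -0.16, with quartiles of -0.33 and 0.07, beside a median of -0.05 and quartiles of -0.27 and 0.17 over all measured genes. A log2 ratio below 0 was seen in 35 of the 50 (70%), against 56.4% of all measured genes. Counts past a fold and shares below 0 are thus not far from the background for the set taken whole, and the roles are described separately below. In RNA from a whole culture, fewer dividing cells and less of a transcript per cell cannot be told apart.

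**Figure D2:**
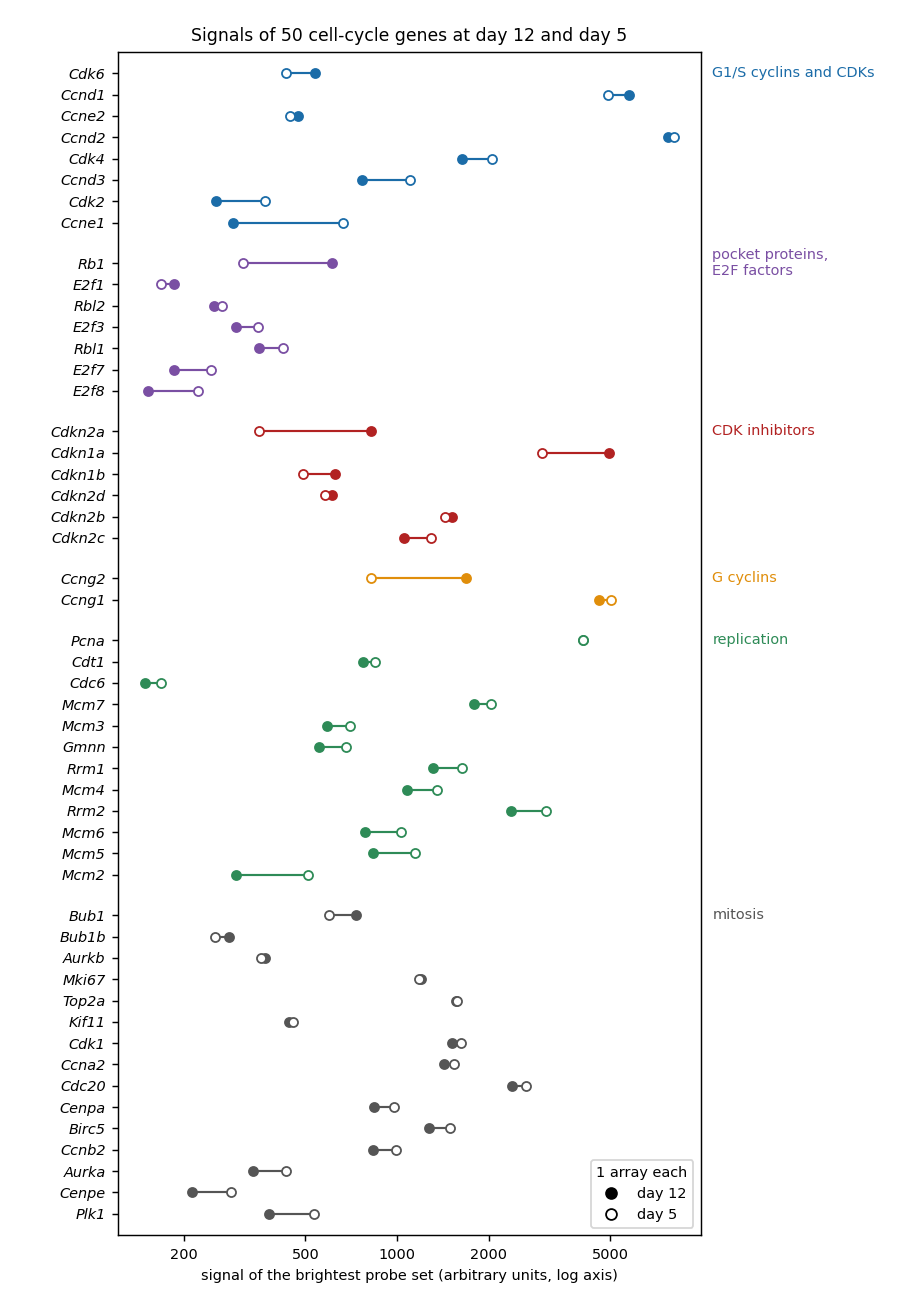
Signal of the brightest probe set (x axis, arbitrary units, log scale) of the 50 measured genes (y axis), grouped by role, with day 12 as filled points and day 5 as open points, 1 array each; signals of different genes come from different probes and are not compared. The longest lines belong to Ccne1, Rb1, Cdkn2a, Ccng2, Cdkn1a and Mcm2, and in the replication genes every filled point lies left of its open point, by too little to see in Pcna.

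Different probe sets of a gene gave the one repeat measurement. Where a gene had at least 2 measured probe sets, as 4446 genes did, its 2 brightest were a median of 0.17 apart in log2 ratio, and over 0.66 apart in the most discordant 5%. For 29 of the cell cycle genes the same median was 0.13, and in 23 of them all measured probe sets gave a ratio on the same side of 0, as they did in 65.3% of all genes with 2 or more. The 6 with probe sets on both sides were Bub1, Bub1b, Ccna2, Kif11, Mcm3 and Rbl1. A log2 ratio larger in size than 0.66 was seen in 6 of the 50 genes, beside 11.7% of all measured genes, so the count is near the background. The 6 were Ccne1, Rb1, Cdkn1a, Cdkn2a, Ccng2 and Mcm2. This spread covers probe error and leaves out differences between cultures.

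Cyclin E1 stood apart among the G1/S cyclins. Ccne1, which activates Cdk2 at the entry into S phase, had signals of 289 at day 12 and 666 at day 5, a 2.31-fold lower value (log2 ratio -1.21). Its second probe set had 182.1 at day 12 and 380.0 at day 5 (log2 ratio -1.06), so both probe sets put it past 2-fold. Among all measured genes it ranked 105 from the lowest ratio. Its paralogue Ccne2 had 474.1 at day 12 and 443.7 at day 5 (log2 ratio 0.10), and so did not share the lower value. Cdk2, the kinase of both E cyclins, had 254 at day 12 and 370 at day 5 (log2 ratio -0.54).

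The D cyclins, which link growth signals to Cdk4 and Cdk6, differed in direction, with log2 ratios from -0.52 to 0.22. Ccnd1 had 5748 at day 12 and 4924 at day 5, with log2 ratios of 0.13 to 0.22 over its 3 probe sets. Ccnd2 had 7732 at day 12 and 8113 at day 5 in its brightest probe set (log2 ratio -0.07). All 7 Ccnd2 probe sets were lower at day 12, but by amounts that ran from a log2 ratio of -0.03 to one of -0.93, and the last was in the dimmest of them, with 374 at day 12 and 711 at day 5. The size of the Ccnd2 ratio is thus uncertain, and whether compression of very bright signals plays a part was not tested. Ccnd3 had 766 at day 12 and 1101 at day 5 (log2 ratio -0.52). Of their kinases, Cdk4 had 1629 at day 12 and 2048 at day 5 (log2 ratio -0.33, but -0.24 and -0.09 in its other probe sets). Cdk6 had 537 at day 12 and 432 at day 5 (log2 ratio 0.32, and 0.36 in its other measured probe set). The 8 G1/S cyclins and CDKs had a median log2 ratio of -0.20, with 3 above 0 and 5 below.

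Among the pocket proteins, which bind E2F factors and hold their targets silent, Rb1 differed from its relatives. Rb1 had 613 at day 12 and 312 at day 5, 1.97-fold higher (log2 ratio 0.97), just under the 2-fold mark and above it when the arrays were centred on their medians (1.03), quantile normalised or fitted by loess (1.05). It rests on 1 measured probe set. Rbl1 had 353 at day 12 and 423 at day 5 (log2 ratio -0.26, but 0.16 in its dimmer probe set), and Rbl2 had 251 at day 12 and 267 at day 5 (log2 ratio -0.09). Of the E2F factors, the activator E2f1 had 185 at day 12 and 168 at day 5 (log2 ratio 0.14, and 0.45 in its other measured probe set) and E2f3 had 296 at day 12 and 348 at day 5 (log2 ratio -0.23). The repressors E2f7 and E2f8, themselves induced in S phase, had log2 ratios of -0.41 and -0.55. E2f8 had 152 at day 12 and 223 at day 5.

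The CDK inhibitors lay above 0 in 5 of 6 members, where 43.6% of all measured genes did, with a median log2 ratio of 0.21. The median was 0.08 without probe sets whose name marks sequence shared between genes or between transcripts of the same gene. That setting leaves out Cdkn2a. Cdkn2a, whose 2 transcripts encode the Cdk4 and Cdk6 inhibitor Ink4a and the Mdm2 inhibitor Arf, had 819 at day 12 and 351 at day 5, 2.33-fold higher (log2 ratio 1.22). It had 1 probe set, whose name marks it as matching more than 1 transcript, so the transcripts cannot be told apart here. Cdkn2b, the next protein-coding gene to it on chromosome 4 and also an INK4 inhibitor, had 1512 at day 12 and 1436 at day 5 (log2 ratio 0.07). The other INK4 genes, Cdkn2c and Cdkn2d, had log2 ratios of -0.29 and 0.08, so Cdkn2a alone of the 4 passed 2-fold. Of the Cip/Kip inhibitors, Cdkn1a, a p53 target that binds cyclin-CDK complexes and Pcna, had 4964 at day 12 and 2978 at day 5, 1.67-fold higher (log2 ratio 0.74, and 0.68 in its other probe set). Cdkn1b had 627 at day 12 and 492 at day 5 (log2 ratio 0.35). The third Cip/Kip gene, Cdkn1c, which was counted among the arrest genes below and not among these 6, was 2.44-fold lower at day 12 (log2 ratio -1.29).

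The G cyclins, atypical cyclins linked to growth arrest, went apart. Ccng2 had 1683 at day 12 and 823 at day 5, 2.04-fold higher (log2 ratio 1.03), and its other probe set gave 335 at day 12 and 127 at day 5, also past 2-fold. Ccng1, a p53 target, had 4592 at day 12 and 5033 at day 5 (log2 ratio -0.13), with all 3 probe sets slightly below 0.

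Replication genes lay on 1 side: all 12 measured members had a lower signal at day 12, none by 2-fold and 1 by 1.5-fold, with a median log2 ratio of -0.31. By comparison, 56.4% of all measured genes were below 0. The set includes Pcna, the sliding clamp of the polymerases, which had 4081 at day 12 and 4083 at day 5 and so hardly differed (above 0 when the arrays were centred on their medians). The 6 subunits of the Mcm helicase, which unwinds DNA at the fork, all lay below the median of all genes, with log2 ratios between -0.79 and -0.19. The measured probe sets of Mcm3 ran from -0.25 to 0.14. Without probe sets of shared sequence Mcm3 had -0.056, just above the median of all genes (-0.063), and Mcm7 was not measured. Mcm2 was the lowest, with 296 at day 12 and 510 at day 5 (1.72-fold lower), though its other probe set gave 344 at day 12 and 429 at day 5 (log2 ratio -0.32). Mcm5 followed, with 835 at day 12 and 1144 at day 5 (log2 ratio -0.45, the same to 2 decimals in its other measured probe set).

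The other replication genes measured, Pcna aside, had log2 ratios between -0.39 and -0.13. Rrm2 and Rrm1, the subunits of ribonucleotide reductase, which makes deoxynucleotides, had log2 ratios of -0.39 and -0.31. Rrm2 had 2367 at day 12 and 3091 at day 5, and all 3 of its probe sets were lower at day 12. Cdc6 and Cdt1, which load the helicase, had log2 ratios of -0.17 and -0.13, and Gmnn (geminin), the inhibitor of Cdt1, had -0.30. Tyms, the thymidylate synthase gene, was below the floor on both arrays in its 4 probe sets, and 1 further probe set shared with a pseudogene was not used. Whether the Tyms transcript was present is therefore not shown.

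Mitosis genes lay on both sides of 0. Of 15 measured members none passed 1.5-fold in either direction, 11 were below 0 and 4 above (9 were below after centring the arrays on their medians or after loess, and 12 after quantile normalisation or by the median of probe sets), where 56.4% of all measured genes were below 0, and the median log2 ratio was -0.10. Mki67 and Top2a, used as markers of dividing cells, had nearly the same signal at both times: Mki67 had 1202 at day 12 and 1183 at day 5 (log2 ratio 0.02), and Top2a had 1561 at day 12 and 1572 at day 5 (log2 ratio -0.01, and -0.22 in its dim second probe set). The mitotic kinase Cdk1 had 1510 at day 12 and 1619 at day 5 (log2 ratio -0.10). Its partners Ccna2 and Ccnb2 had log2 ratios of -0.10 and -0.25. Ccnb1 had no probe set annotated with it alone.

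The members furthest below 0 were the mitotic kinase Plk1, the kinetochore motor Cenpe and the spindle kinase Aurka. Plk1 had 379.5 at day 12 and 534.9 at day 5 (log2 ratio -0.50), Cenpe had 213 at day 12 and 284 at day 5 (log2 ratio -0.42, and -0.67 in its other probe set), and Aurka had 338 at day 12 and 430.4 at day 5 (log2 ratio -0.35). The spindle checkpoint genes Bub1 and Bub1b had the highest ratios, 0.29 and 0.16, but in both the second measured probe set lay below 0, at -0.27 and -0.23. Cdc20, which activates the anaphase-promoting complex, Cenpa, the centromeric histone, and Birc5 (survivin) had log2 ratios of -0.15, -0.21 and -0.23. Kif11, a spindle motor, and Aurkb, the kinase that works with Birc5, had -0.05 and 0.04. Other measured probe sets gave -0.20 and -0.55 for Cdc20, -0.14 for Cenpa, -0.24 and 0.22 for Kif11 and 0.27 for Aurkb.

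**Figure D3:**
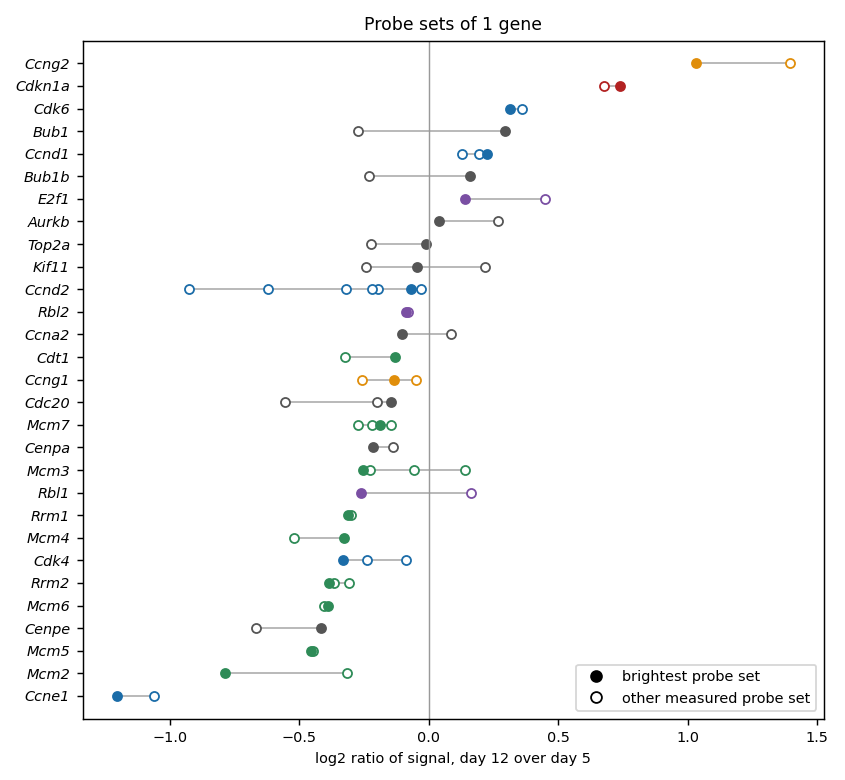
Log2 ratio of signal, day 12 over day 5 (x axis), for every measured probe set of the 29 genes with 2 or more (y axis); filled points are the brightest probe set and open points the others, coloured by role as in the plot of signals. Ccne1 and Ccng2 lie past -1 and 1 in both probe sets, and Bub1, Bub1b, Ccna2, Kif11, Mcm3 and Rbl1 have probe sets on both sides of 0.

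Further genes of the pathway were counted in the same way. Of 42 other measured replication genes none passed 2-fold and 38 (90.5%) were below 0, with a median log2 ratio of -0.22. The furthest were Rpa2, a subunit of the single-strand DNA binding protein, with 356 at day 12 and 622 at day 5 (log2 ratio -0.80), Gins3 of the helicase complex (-0.67), Orc2 of the origin recognition complex (-0.58) and the thymidine kinase gene Tk1 (-0.57). Of 66 other measured mitosis genes none passed 2-fold and 53 (80.3%) were below 0, with a median of -0.21, beside -0.10 for the 15 described above. The furthest were Cenpn, a centromere protein (-0.75), Pimreg (-0.61), Cdca5, which protects sister cohesion (-0.51), and Cenpk (-0.47). Against these, 56.4% of all measured genes were below 0. In these longer lists the replication and mitosis medians were nearly the same (-0.22 and -0.21), unlike those of the members (-0.31 and -0.10).

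Other G1/S genes were spread around the median of all genes, with 8 of 19 above 0, 11 below and a median log2 ratio of -0.05. Myc, a growth-promoting transcription factor, had 1018 at day 12 and 539 at day 5, 1.89-fold higher (log2 ratio 0.92), and Mycn had 0.74 from signals near the floor. Tfdp2, a partner of E2F factors, and the repressor E2f6 had -0.67 and -0.64. Of the 21 measured arrest and p53 target genes, 9 had a log2 ratio above 0 and 12 below, with a median of -0.18. The 2-fold mark was passed upward by 1 and downward by 1, where 3.56% and 1.73% of all measured genes passed it. Foxo1, a forkhead factor of quiescent cells, had 455.1 at day 12 and 213 at day 5 (2.14-fold higher). The imprinted inhibitor gene Cdkn1c had 1198 at day 12 and 2926 at day 5, opposite in direction to Cdkn1a. Rprm and the p53 target Sesn1 had -0.78 and -0.73.

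**Figure D4:**
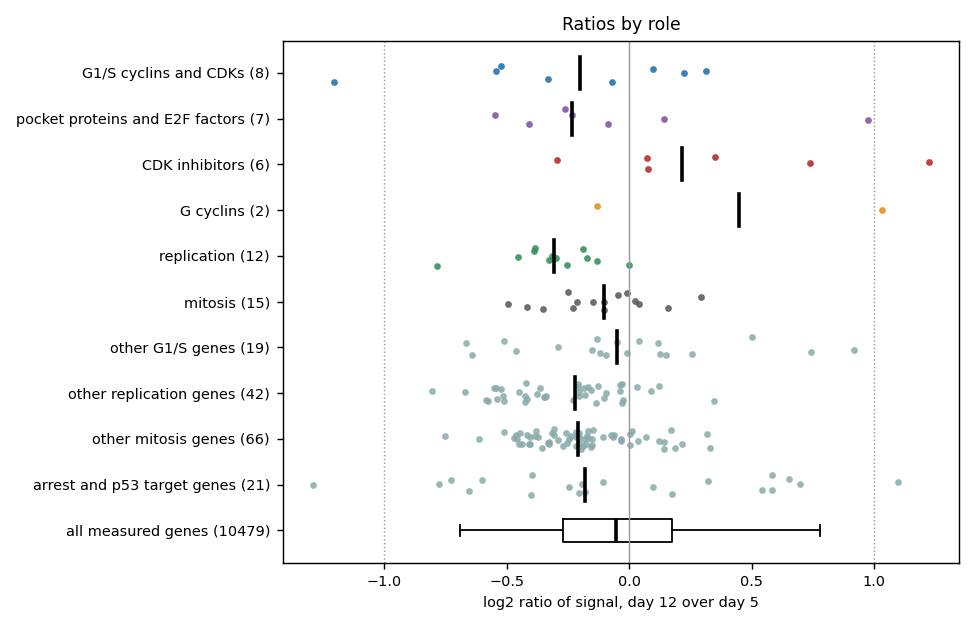
Log2 ratio of signal, day 12 over day 5 (x axis), for each measured gene by role (points; number of genes in brackets), with black bars at the medians; the box at the bottom gives the quartiles and the 5th to 95th percentile of all 10479 measured genes, and dotted lines mark 2-fold. The replication genes lie left of 0 with a median of -0.31, and the CDK inhibitors mostly right of it with a median of 0.21. Of these inhibitors Cdkn2b and Cdkn2d lie close to 0 (0.07 and 0.08), and the inhibitor gene Cdkn1c (-1.29) is drawn among the arrest genes.

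Markers of osteoblasts, chondrocytes and myeloid cells differed between the arrays as well. For comparison with the counts below, 3.56% of all measured genes passed the 2-fold mark upward at day 12 and 1.73% downward. Of 10 osteoblast markers 8 were measured and 6 of them were at least 2-fold higher at day 12. Of 13 chondrocyte markers, all measured, 9 were at least 2-fold lower at day 12. The 13 ran from Matn1, which was below the floor at day 12, to Col11a2 (log2 ratio -0.44). Of 12 myeloid markers 11 were measured and all 11 were at least 2-fold higher at day 12. Their log2 ratios ran from 1.08 (Cd14) to 2.13 (Tyrobp), and Itgam, the CD11b gene itself, was below the floor on both arrays. Of 8 endothelial markers 6 were below the floor on both arrays, including Pecam1 and Cdh5, and the 3 lymphoid and erythroid markers on the array were below it as well. The part of these cell types in the values of the cell cycle genes was not tested.

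**Figure D5:**
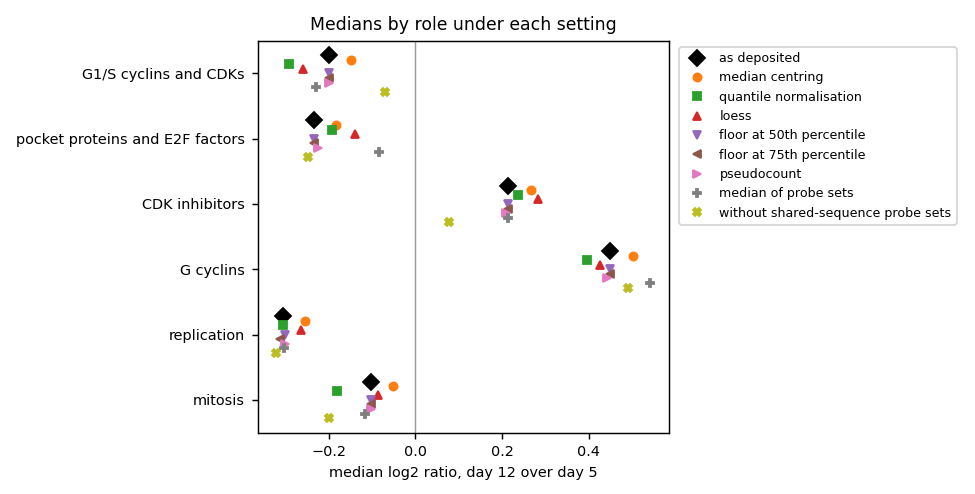
Median log2 ratio, day 12 over day 5 (x axis), of each role (y axis) as deposited (black diamonds) and under 8 other settings. Every median kept its side of 0 under these settings, and that of the replication genes stayed between -0.32 and -0.26.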

How the data were processed

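Biotinylated cRNA was run on 1 Affymetrix array per day, as the labels describe, and the number of cultures or mice behind each array is not given in the sources used here. The authors deposited linear signal intensity values for 45101 probe sets, made with GCOS 1.4 and MAS5 per the submitters' processing notes. A mean trimmed by 2% at either end came to 200.0 on day 12 and day 5 alike, so the deposited arrays share 1 scaling target and a change in a cell's total RNA would not be seen. Detection calls were not used. A genome build is not given in the sources used here.

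Gene names came from the platform annotation, with symbols updated through the Entrez number in GRCm38.p6. Of 45037 probe sets other than controls, 34945 had 1 symbol, 932 several and 9160 none, and the last 2 kinds were not named. A gene was read from its brightest probe set by mean log2 signal. Each array's 60th percentile served as its floor, lower values were raised to it, and nothing was normalised further. No test can be made from 1 array per day, so genes past 2-fold were counted, and precision is limited by the number of arrays.

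Every member is named, and of each further pathway list up to 4 genes with the largest ratio and those past 2-fold. The members and lists were chosen with earlier results of these data known. The code was tested on simulated data with planted changes. The software was Python 3.11.15 with numpy 2.4.6, pandas 2.3.3, scipy 1.17.1, statsmodels 0.14.6 and matplotlib 3.10.9.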

Additional observations from a re-analysis of the deposited data

How the results depend on the processing

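Sequence is called shared here when it is shared between genes or between transcripts of the same gene. Results were recomputed with 3 other scalings (arrays centred on their medians, quantile normalisation, loess), with the floor moved to the 50th or the 75th percentile or replaced by a pseudocount of 16, with each gene's probe sets summarised by their median, and without probe sets whose name marks shared sequence. Ccne1 was at least 2-fold lower and Ccng2 at least 2-fold higher under all 8 of them. Cdkn2a was at least 2-fold higher under 7, and was not measured without probe sets of shared sequence, which left 1 gene at least 2-fold higher. Rb1 passed 2-fold under 3. A floor acts only on signals below it. Moving it to the 50th or the 75th percentile could not change Ccne1, Ccng2 or Cdkn2a, whose signals lay above either floor. At a threshold of 1.5-fold 4 genes were higher and 2 lower, and at 3-fold 0 were higher and 0 lower. A stricter threshold cannot give more genes. Each role's median kept its side of 0 under all 8 alternatives, with ranges of -0.29 to -0.07 for the G1/S cyclins and CDKs, -0.25 to -0.09 for the pocket proteins and E2F factors, 0.08 to 0.28 for the CDK inhibitors, 0.40 to 0.54 for the G cyclins, -0.32 to -0.26 for the replication genes and -0.20 to -0.05 for the mitosis genes. Moving the floor changed only the replication median, and that slightly (-0.30 at the 50th and -0.31 at the 75th percentile), so those settings hardly test the medians. The median over all genes lay between -0.06 and 0.01. Of 392 recomputed values of single genes 379 moved by less than 0.17, the median difference between 2 probe sets of 1 gene, and 13 moved further. The 379 include values at the moved floors, most of which could not change. Pcna, Top2a, Kif11, Rbl2 and Bub1b had a ratio on the other side of 0 under at least 1 alternative. No paired analysis was possible because there was 1 array per day. No value here can separate a change with differentiation from a difference between cultures.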

Other observations

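The array also measured 21 cyclin, CDK and CDK inhibitor genes outside the lists above, taken by symbol after the values of the listed genes had been seen. None of them passed 2-fold, 6 had a log2 ratio of day 12 over day 5 above 0 and 15 below, and their median was -0.14, beside -0.05 for all measured genes. Several act in transcription rather than in the division cycle, such as Cdk9, which releases paused RNA polymerase II, with signals of 1165 at day 12 and 1497 at day 5 (log2 ratio -0.36), and Ccnt1, its cyclin, with 557 at day 12 and 491 at day 5 (log2 ratio 0.18). Cdkn3, a phosphatase that acts on CDKs, had the lowest ratio, with 329 at day 12 and 512 at day 5 (log2 ratio -0.64). Cdk17 had the highest, with 856 at day 12 and 598 at day 5 (log2 ratio 0.52). Ccnc, a cyclin of the Mediator complex, had -0.29 in its brightest probe set and -1.26 in its lowest measured one.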
